A study of Mus musculus with 12 samples.

Results

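Serotonin handling in the mouse lung was examined through 7 genes of synthesis, transport, reception and breakdown, namely Tph1, Slc6a4, Htr1b, Htr2a, Htr2b, Maoa and Maob. They were chosen by gene symbol from 22180 genes that had at least 1 transcript cluster of their own, a cluster being the set of probes that reads 1 transcript locus. Where a gene had several such clusters, the one with the highest mean over all arrays was used, and 41155 clusters were tested in all. The mice were male C57BL/6J, matched for age and body weight. Their own age was not stated, and mice of the longer chamber protocol to which the methods refer were 10 to 12 weeks old. The hypoxia group (n=6) spent 3 days in a normobaric chamber at 10% oxygen, and the normoxia group (n=6) breathed 21% oxygen in the animal unit, so chamber housing and low oxygen cannot be told apart. All mice received pentobarbital and heparin, and the left lung lobe was washed in saline, frozen and hybridised to 1 whole-transcript array per mouse. The p-values below therefore measure the spread between mice.

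Serotonin is made outside the brain from tryptophan by tryptophan hydroxylase, mostly in enterochromaffin cells of the gut, and is carried in blood by platelets. A high-affinity transporter takes it into platelets and lung endothelium, where mitochondrial monoamine oxidases break it down. In the pulmonary circulation serotonin contracts arteries and promotes the growth of vascular smooth muscle, and the pathway has long been studied in pulmonary hypertension.

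Of the 7 genes, 1 changed after 3 days of hypoxia: Maob, a monoamine oxidase of the outer mitochondrial membrane, fell to a log2 level of 7.83±0.05 in hypoxia, against 8.23±0.08 in normoxia (mean±SD, n=6 each). None rose, and the other 6 did not pass the threshold of 0.05 on the adjusted p. Over all clusters, 4.47% passed that threshold, 2.77% higher and 1.70% lower in hypoxia. That share includes 15814 clusters unnamed here. A fit of only the 23521 clusters with 1 gene symbol, the kind used for the members, called 1941 of them, a higher share. The groups did not overlap for 1 of the 7 genes, again Maob, against 4.03% of all clusters. An unadjusted limma p under 0.05 was reached by 3 of the 7, Htr2a, Maoa and Maob, against 16.4% of all clusters. With so few members these shares are given as a description. The median log2 fold change of the 7 was -0.07, against -0.02 over all clusters, with 3 positive and 4 negative values. Levels are on the log2 scale of the robust multi-array average and are not compared between genes, because probes differ in how strongly they bind.

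**Figure D1:**
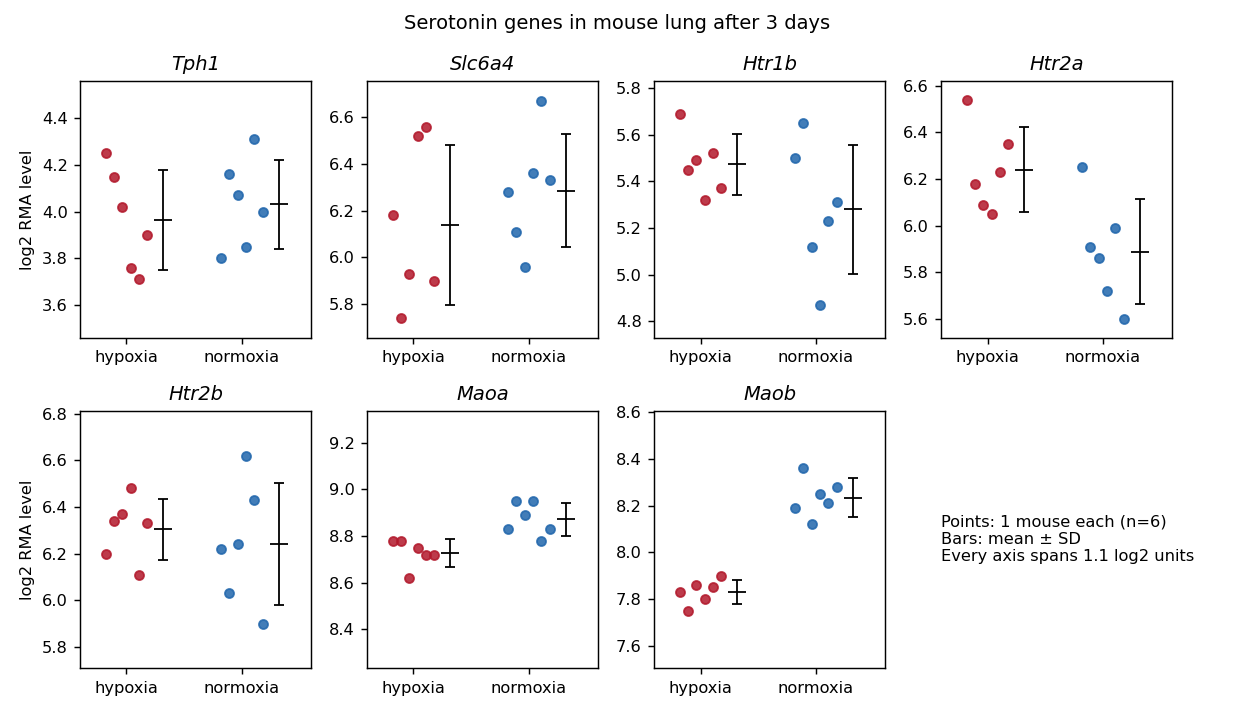
Log2 level of each of the 7 serotonin genes in every mouse, with hypoxia on the left and normoxia on the right of each panel; bars give mean±SD (n=6 per group) and every axis spans the same number of log2 units. The 2 groups of Maob are separate, those of Maoa meet at 8.78, and those of the other 5 genes overlap.

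Tph1 encodes the tryptophan hydroxylase of tissues outside the brain, the rate-limiting step of serotonin synthesis there. Its log2 level ran from 3.71 through a median of 3.96 to 4.25 in hypoxia, and from 3.80 through a median of 4.04 to 4.31 in normoxia. The groups overlapped over nearly their whole range. The log2 fold change was -0.07 with a standard error of 0.11 (95% interval -0.31 to 0.17), and neither the limma test (adjusted p = 0.835) nor the exact permutation test over the 924 ways to split 12 arrays (two-sided p = 0.584) separated the groups. The cluster lay below the median level of all clusters, 5.91, so its signal was dim on these arrays. A pair of promoter stretches is printed here because hypoxia is the condition compared and both hold the core of the hypoxia response element, the sequence that hypoxia-inducible factors bind. They come from RefSeq promoters of assembly GRCm38.p6, which run from 250 bases before to 50 bases after a transcription start, and capitals mark each core.
Tph1 promoter, chr7:46672542-46672598, minus strand, positions -61 to -5: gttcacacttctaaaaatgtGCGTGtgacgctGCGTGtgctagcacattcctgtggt
Slc6a4 promoter, chr11:76998404-76998448, plus strand, positions -193 to -149: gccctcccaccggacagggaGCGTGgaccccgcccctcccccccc
The core was searched as ACGTG or GCGTG on both strands, and ACGTG overlaps its own reverse complement in CACGTG. It was present in 43.8% of the 32851 promoters of that table, and in 3 of the 7 promoters found there for 6 of the serotonin genes. The first Tph1 promoter held 2 cores, at -41 and -29 from the start, and the second Tph1 promoter held none. Slc6a4 held 1 at -173, and Htr1b held 1 at 28 bases after its start. No core was found in these windows of Htr2a, Htr2b and Maoa, and the Maob promoter was not analysed here. A match of letters in a window is a description and was not set against binding of any factor, and none of the 3 genes with a core passed the expression test.

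Slc6a4 encodes the high-affinity serotonin transporter of platelets, neurons and lung endothelium. Its log2 level had a lowest value of 5.74, a median of 6.05 and a highest value of 6.56 in hypoxia, and a lowest value of 5.96, a median of 6.30 and a highest value of 6.67 in normoxia. The groups overlapped, and in both of them single mice differed from each other by far more than the means did. Its log2 fold change was -0.15 with a standard error of 0.16 (95% interval -0.48 to 0.19, limma adjusted p = 0.723), so a fall of the size seen for Maob is inside the interval. Among 19236 genes searched, the gene whose deviations from the group mean were most like those of Slc6a4 was Ppbp, the platelet basic protein stored in platelet granules, with r = 0.90 over 12 arrays, 0.90 within hypoxia and 0.95 within normoxia. Irgq (0.89) and Bicra (0.88) came next. A highest r of 0.93 or 0.94 was reached for every other member too, so an r of this size does not single out Ppbp. The Ppbp level lay between 10.01 and 11.11 in hypoxia, with a median of 10.28, and between 9.96 and 11.34 in normoxia, with a median of 10.32. Its own log2 fold change was -0.03 (limma adjusted p = 0.967), and its range among mice of each group was wide beside that difference of the means. All 10 platelet markers measured had a positive correlation with Slc6a4 over the 12 arrays, the lowest being 0.48 for Clec1b, a platelet activation receptor. Within hypoxia they ran from 0.68 to 0.94, but within normoxia from 0.04 for Clec1b to 0.95, with the integrin Itga2b at 0.19 and the glycoprotein Gp5 at 0.24. Over all 12 arrays, integrin Itgb3 had 0.84, Gp9 of the von Willebrand factor receptor 0.81, platelet tubulin Tubb1 0.80 and Pf4, another granule chemokine, 0.79.

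Within hypoxia the mean level of the 10 platelet markers was 7.66 and 7.33 in replicates 4 and 5, the 2 mice with the highest Slc6a4, and 6.96 to 7.11 in the other 4. Within normoxia it was 7.70 in replicate 5, the mouse with the highest Slc6a4, and 7.04 to 7.24 in the other 5. The correlation of Slc6a4 with that mean was r = 0.88 in hypoxia (exact permutation p = 0.00972, Spearman's rho 0.94, exact permutation p = 0.0167, n=6) and r = 0.83 in normoxia (exact permutation p = 0.0375, rho 0.77, exact permutation p = 0.103, n=6). Without the 2 mice farthest from the median of the markers, r was above 0.99 over 4 hypoxic mice and 0.02 over 4 normoxic mice, so the normoxic relation rests on those mice. This was 1 of 8 marker lists tested in each group, 16 relations in all, and none passed Benjamini-Hochberg adjustment: the adjusted p of the platelet relation was 0.119 in hypoxia and 0.129 in normoxia (exact permutation tests of r). Other lists had an r of about the same size in 1 group, but only the platelet list had 0.83 or more in both. The mast cell list had r = 0.89 in hypoxia and 0.38 in normoxia. Its signal was dim and varied little among hypoxic mice (SD 0.04, against 0.27 for the platelet list). The fibroblast list had 0.29 in hypoxia and -0.87 in normoxia (-0.98 without the 2 farthest mice). The neuroendocrine list, also dim, had 0.23 in hypoxia and -0.82 in normoxia. In hypoxia the smooth muscle list also gave r above 0.99 without its 2 farthest mice, though it had -0.27 over all 6. The capillary list gave 0.96 that way and 0.73 over all 6, so such values over 4 mice do not set platelet markers apart. With 6 mice a group, Slc6a4 was therefore not shown within either group to follow platelet markers more closely than these lists. The part of platelets left in the washed lobes in the level of Slc6a4 was not tested.

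**Figure D2:**
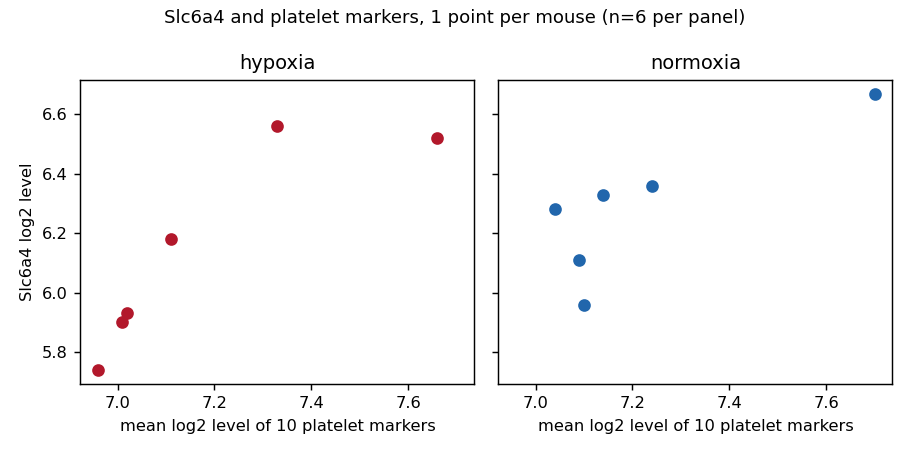
Log2 level of Slc6a4 (vertical axis) against the mean log2 level of 10 platelet markers (horizontal axis), 1 point per mouse, hypoxia in the left panel and normoxia in the right (n=6 each). Pearson's r was 0.88 in hypoxia and 0.83 in normoxia, and the 1 normoxic mouse at 7.70 stands apart from the other 5.

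The 3 serotonin receptors all couple to G proteins, Htr1b to inhibitory ones that lower cyclic AMP, and Htr2a and Htr2b to those that activate phospholipase C. Htr2a, the main contractile serotonin receptor of many arteries and a receptor on platelets, had the largest positive log2 fold change of the 7 genes. Its log2 level was lowest at 6.05, had a median of 6.21 and was highest at 6.54 in hypoxia, against a lowest value of 5.60, a median of 5.88 and a highest value of 6.25 in normoxia. The groups overlapped because normoxia replicate 1, at 6.25, was above 4 of the 6 hypoxic mice. The log2 fold change of 0.35 (standard error 0.11, 95% interval 0.11 to 0.59) had an unadjusted limma p of 0.00773 and missed the threshold after adjustment over all clusters (adjusted p = 0.109), and the exact permutation p was 0.0173. A change of at least that size in either direction was seen in 6.33% of all clusters. The mean of Htr2a was 6.24 in hypoxia and 5.89 in normoxia, and the median level of all clusters was 5.91. Its signal was thus close to dim, and in normoxia below that median. Without normoxia replicate 1, Htr2a passed with a log2 fold change of 0.42 (limma adjusted p = 0.0401), and it passed in none of the other 11 fits that left out 1 mouse.

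Htr1b has been described on pulmonary artery smooth muscle, where it mediates contraction and growth in several species. Its level lay between 5.32 and 5.69 in hypoxia (median 5.47) and between 4.87 and 5.65 in normoxia (median 5.27), so all hypoxic mice but replicate 1 lay within the normoxic range. Its log2 fold change was 0.19 with a standard error of 0.12 (95% interval -0.06 to 0.45, limma adjusted p = 0.461). This cluster was also dim, below the median level of all clusters. A further cluster annotated to Htr1b and to D430036J16Rik together averaged 6.58±0.25 in hypoxia and 6.57±0.13 in normoxia (SD, n=6 each), a log2 fold change of 0.01 (limma adjusted p = 0.975). Because it bears 2 gene symbols it was not used for Htr1b.

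Htr2b, a receptor required for heart development and for hypoxic pulmonary hypertension in mouse models, had a lowest level of 6.11, a median of 6.33 and a highest level of 6.48 in hypoxia, against 5.90, 6.23 and 6.62 in normoxia. All 6 hypoxic mice fell within the normoxic range. Hypoxia over normoxia gave a log2 fold change of 0.06 with a standard error of 0.11 (95% interval -0.18 to 0.31, limma adjusted p = 0.842). The sign of that difference turned when normoxia replicate 6 was left out. Measured on the same array, the log2 level of Htr2a minus that of Htr2b averaged -0.07±0.28 in hypoxia and -0.35±0.32 in normoxia (SD, n=6 each). That difference of 0.29 did not exceed the spread between mice (exact permutation p = 0.136), so the changes of the 2 receptors were not shown to differ.

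The 2 monoamine oxidases, which lie beside each other on the X chromosome in the RefSeq annotation, remove the amine of serotonin to give an aldehyde. Maoa is the isoform with the higher affinity for serotonin, and Maob prefers phenylethylamine and is abundant in platelets and in some astrocytes and neurons. Maob ran from 7.75 through a median of 7.84 to 7.90 in hypoxia, and from 8.12 through a median of 8.23 to 8.36 in normoxia. All 6 hypoxic mice were below all 6 normoxic mice, with a gap between the groups that was wider than the range within hypoxia. The log2 fold change of -0.40 (standard error 0.05, 95% interval -0.52 to -0.29) is a level in hypoxia of 0.756 times that in normoxia, with a limma adjusted p of 6.31e-04. The exact permutation p was 0.00216, the smallest that 6 against 6 mice can give. In whole lobes, fewer cells that express a gene and less RNA per cell cannot be told apart.

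Maoa had a lowest level of 8.62, a median of 8.73 and a highest level of 8.78 in hypoxia, against 8.78, 8.86 and 8.95 in normoxia. The groups met at 8.78, reached by the highest hypoxic mice and the lowest normoxic mouse. Its log2 fold change was -0.14 with a standard error of 0.05 (95% interval -0.25 to -0.03). Its unadjusted limma p of 0.0156 missed the threshold after adjustment (adjusted p = 0.164), and the exact permutation p was 0.00649. On the same array, the log2 level of Maob minus that of Maoa averaged -0.90±0.10 in hypoxia and -0.64±0.08 in normoxia (SD, n=6 each). It was -1.03 to -0.76 in hypoxia and -0.77 to -0.55 in normoxia, ranges that overlapped by 1 mouse in each group. The difference of -0.26 between the groups exceeded the spread between mice (exact permutation p = 0.00433, and 0.00866 after adjustment over the 2 gene pairs compared). On these arrays Maob was lower by more than Maoa. Both pairs were chosen with the values known, out of 21 possible pairs of members, so their p-values are given as a description.

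**Figure D3:**
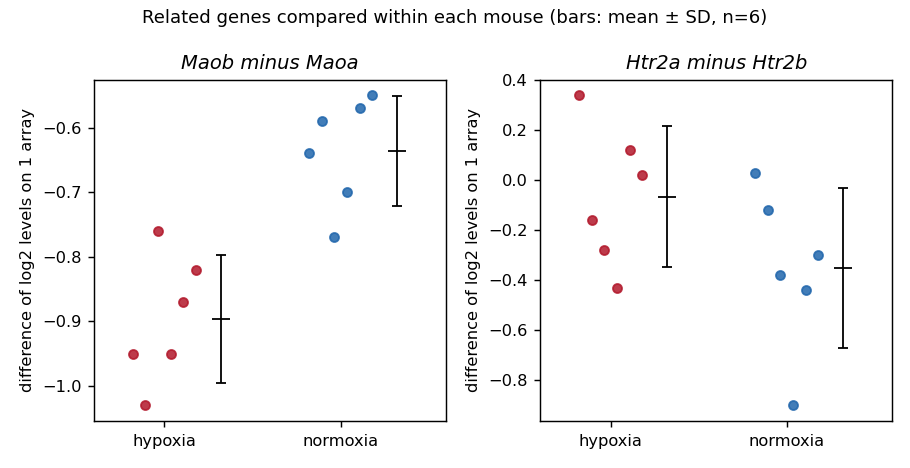
Difference of log2 levels between related genes measured on the same array, Maob minus Maoa in the left panel and Htr2a minus Htr2b in the right, with hypoxia left of normoxia (1 point per mouse, bars mean±SD, n=6 each). For Maob minus Maoa the means were -0.90 in hypoxia and -0.64 in normoxia, and for Htr2a minus Htr2b -0.07 in hypoxia and -0.35 in normoxia, where the points overlap broadly.

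Around the 7 genes, 47 of 50 listed genes of the same pathway were measured, and 3 of them were higher, 3 were lower and 41 did not pass, with a median log2 fold change of -0.02. The other 3 were not analysed here. Over all clusters, 2.77% passed higher in hypoxia and 1.70% lower, and the groups did not overlap for 4.03%. With lists this short, the counts below are given as a description. A list of further metabolism held the 3 that fell, out of 9 enzymes measured, and had a median log2 fold change of -0.15. It joined enzymes that handle the aldehyde left by monoamine oxidase with enzymes that modify indoleamines by other routes. Inmt, an N-methyltransferase of lung that acts on tryptamine and related indoleamines, lay between 11.30 and 11.73 in hypoxia (median 11.54) and between 11.77 and 12.24 in normoxia (median 11.97). Its log2 fold change was -0.44 (standard error 0.09, limma adjusted p = 0.0118), without overlap of the groups. Aldh2, the mitochondrial aldehyde dehydrogenase that oxidises the aldehyde left by monoamine oxidase, averaged 11.55±0.04 in hypoxia and 11.76±0.05 in normoxia, a log2 fold change of -0.21 (limma adjusted p = 0.0193), or -0.32 with the mean of all its clusters (limma adjusted p = 0.00233). Aldh1a1, a cytosolic aldehyde dehydrogenase best known for making retinoic acid, averaged 11.80±0.06 in hypoxia and 12.07±0.10 in normoxia, a log2 fold change of -0.27 (limma adjusted p = 0.02). For both dehydrogenases every hypoxic mouse was below every normoxic mouse. Of the 6 others in that list, the sulfotransferase Sult1a1 had -0.26 (limma adjusted p = 0.148) and Aldh1b1 had -0.15 (limma adjusted p = 0.453).

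Among 8 other genes of synthesis and of its cofactor tetrahydrobiopterin, 1 rose, against 2.77% of all clusters. Gch1, the rate-limiting enzyme of tetrahydrobiopterin synthesis, which serves nitric oxide synthase as well as tryptophan hydroxylase, lay between 7.09 and 7.39 in hypoxia (median 7.13) and between 6.65 and 6.96 in normoxia (median 6.94). Its log2 fold change was 0.29 (standard error 0.07, limma adjusted p = 0.0362). The call was lost in 10 of the 12 fits that left out 1 mouse, where the fold change stayed between 0.24 and 0.30. Ddc, the decarboxylase that completes serotonin synthesis, had -0.15 (limma adjusted p = 0.404), and Gchfr, the feedback regulator of Gch1, had -0.16 (limma adjusted p = 0.47). The 7 enzymes of the kynurenine pathway, which starts from tryptophan, held 0 limma calls, 1 at an unadjusted p under 0.05 and 0 by analysis of variance. Their median log2 fold change was -0.03. Haao and Kmo, which act after kynurenine is made, had -0.16 (limma adjusted p = 0.266) and -0.18 (limma adjusted p = 0.347). The 4 transporters of vesicular storage and low-affinity uptake had 0 limma calls, 0 at an unadjusted p under 0.05 and 0 by analysis of variance, with log2 fold changes of -0.05 to -0.00. Slc18a2, the vesicular monoamine transporter, had -0.04 (limma adjusted p = 0.854) and Slc22a2, an organic cation transporter, had -0.05 (limma adjusted p = 0.887). The Slc22a2 signal was dim, at 3.65±0.18 in hypoxia and 3.70±0.21 in normoxia.

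None of the 11 other serotonin receptors passed the threshold in limma or by analysis of variance, and 2 had an unadjusted limma p under 0.05, with log2 fold changes from -0.39 to 0.12 and a median of 0.02. All 11 were dim, below the median level of all clusters, 5.91. Their mean level was 4.84±0.05 in hypoxia and 4.88±0.03 in normoxia (SD, n=6 each), which limits what can be seen of them. Htr2c, a receptor known mainly from brain and choroid plexus, averaged 4.40±0.26 in hypoxia and 4.79±0.26 in normoxia, a log2 fold change of -0.39 that missed the threshold (limma adjusted p = 0.155). Htr1a, an inhibitory autoreceptor of brain neurons, had -0.20 (limma adjusted p = 0.263). Of 8 genes described downstream of serotonin in vascular smooth muscle, 2 rose and none fell, and their median log2 fold change was 0.17. Over all clusters, 2.77% rose and 1.70% fell, and the groups did not overlap for 4.03%. S100a4, a calcium-binding protein released from pulmonary artery smooth muscle after serotonin, averaged 10.11±0.14 in hypoxia and 9.76±0.14 in normoxia, a log2 fold change of 0.35 (limma adjusted p = 0.0276). Tgm2, the transglutaminase that attaches serotonin to proteins such as RhoA, averaged 9.56±0.09 in hypoxia and 9.34±0.05 in normoxia, a log2 fold change of 0.22 (limma adjusted p = 0.0355). The groups did not overlap for either gene, and the call held in 7 of 12 fits that left out 1 mouse for S100a4 and in 2 of 12 for Tgm2. The phospholipase Plcb4 had 0.20 (limma adjusted p = 0.0623) and the small GTPase Rhoa had 0.15 (limma adjusted p = 0.107), both without overlap of the groups. With the mean of all its clusters, Rhoa had only 0.10 (limma adjusted p = 0.201). Analysis of variance with the group alone called both, so that 4 of the 8 rose by it (adjusted p = 0.0328 for Plcb4 and 0.0215 for Rhoa). By that test, 1174 of all 41155 clusters were higher in hypoxia and 772 were lower.

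**Figure D4:**
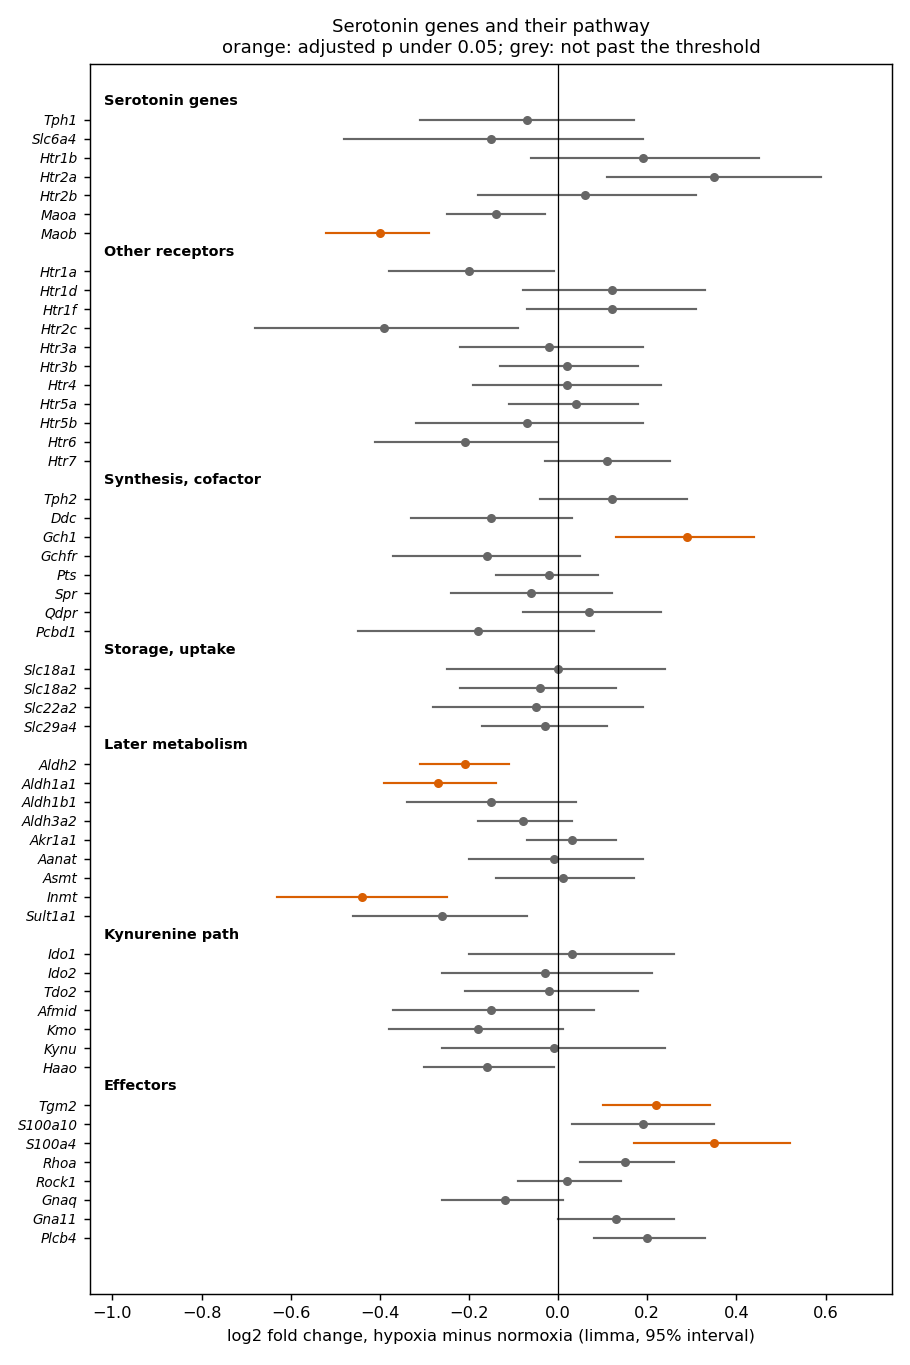
Log2 fold change of hypoxia over normoxia with its 95% interval for the 7 serotonin genes and the other pathway genes, grouped by role (limma, n=6 mice per group); orange points passed an adjusted p of 0.05 and grey points did not. Maob, Inmt, Aldh2 and Aldh1a1 lie left of 0 among the orange points, and Gch1, S100a4 and Tgm2 lie right of it.

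Markers of some cell types of the lobe differed between the groups. Over all clusters, 2.77% passed the threshold higher in hypoxia and 1.70% lower. Epithelial markers were present in both groups, with Sftpc, a surfactant protein, at a median of 13.34 in hypoxia and 13.41 in normoxia, and 0 of 12 passed in limma (3 at an unadjusted p under 0.05, and 1, lower, by analysis of variance). Capillary endothelial markers, of which 8 of 15 fell and none rose, had a mean level of 9.70 to 9.91 over hypoxic mice and 10.11 to 10.31 over normoxic mice. Plvap, a protein of endothelial fenestrae, had the smallest p with a log2 fold change of -1.21 (limma adjusted p = 8.72e-07), followed by the endothelin receptor Ednrb with -0.84 and the prostaglandin-degrading enzyme Hpgd with -0.92. The other 7 of that list did not pass. Among them, picked after their values were seen, Cdh5 had -0.04 (limma adjusted p = 0.807), Pecam1 -0.07 (0.73), Car4 -0.22 (0.0897) and Sema3c 0.09 (0.646). Smooth muscle markers, of which 7 of 10 rose, averaged 8.72 to 9.09 in hypoxia and 8.20 to 8.45 in normoxia, with smooth muscle actin Acta2 at 1.24 (limma adjusted p = 4.28e-06). Pericyte markers, of which 5 of 10 rose, averaged 8.34 to 8.47 in hypoxia and 7.89 to 8.09 in normoxia, and fibroblast markers, of which 3 of 12 rose, averaged 8.72 to 8.93 in hypoxia and 8.51 to 8.67 in normoxia. The part of these shifts in the fall of Maob, Inmt, Aldh2 and Aldh1a1 and in the rise of Gch1, S100a4 and Tgm2 was not tested.

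The cells that make, store or carry serotonin gave other values. Platelet markers held 0 limma calls among 10 measured, 0 at an unadjusted p under 0.05 and 0 by analysis of variance, and averaged 6.96 to 7.66 in hypoxia and 7.04 to 7.70 in normoxia. Neuroendocrine markers held 0 limma calls among 8 measured, 2 at an unadjusted p under 0.05 and 0 by analysis of variance, and averaged 5.30 to 5.57 in hypoxia and 5.44 to 5.52 in normoxia. These means lay below the median level of all clusters, 5.91, so dim signal limits what can be seen of that list. Mast cell and basophil markers averaged 5.36 to 5.46 in hypoxia and 5.32 to 5.52 in normoxia, and 2 of 12 fell (3 at an unadjusted limma p under 0.05), with a median log2 fold change of 0.07. Over all clusters, 1.70% fell. On average this list was dim as well, with Fcer1a at 2.80 and Mcpt4 at 3.12 in hypoxia. The 2 that fell were Kit, a receptor that other lung cells also express, with a log2 fold change of -0.48 (limma adjusted p = 0.0103), and Gata2, a transcription factor of endothelium as well, with -0.43 (limma adjusted p = 0.0114). The mast cell carboxypeptidase Cpa3, picked after its values were seen, had 0.26 without overlap of the groups and did not pass (limma adjusted p = 0.112).

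**Figure D5:**
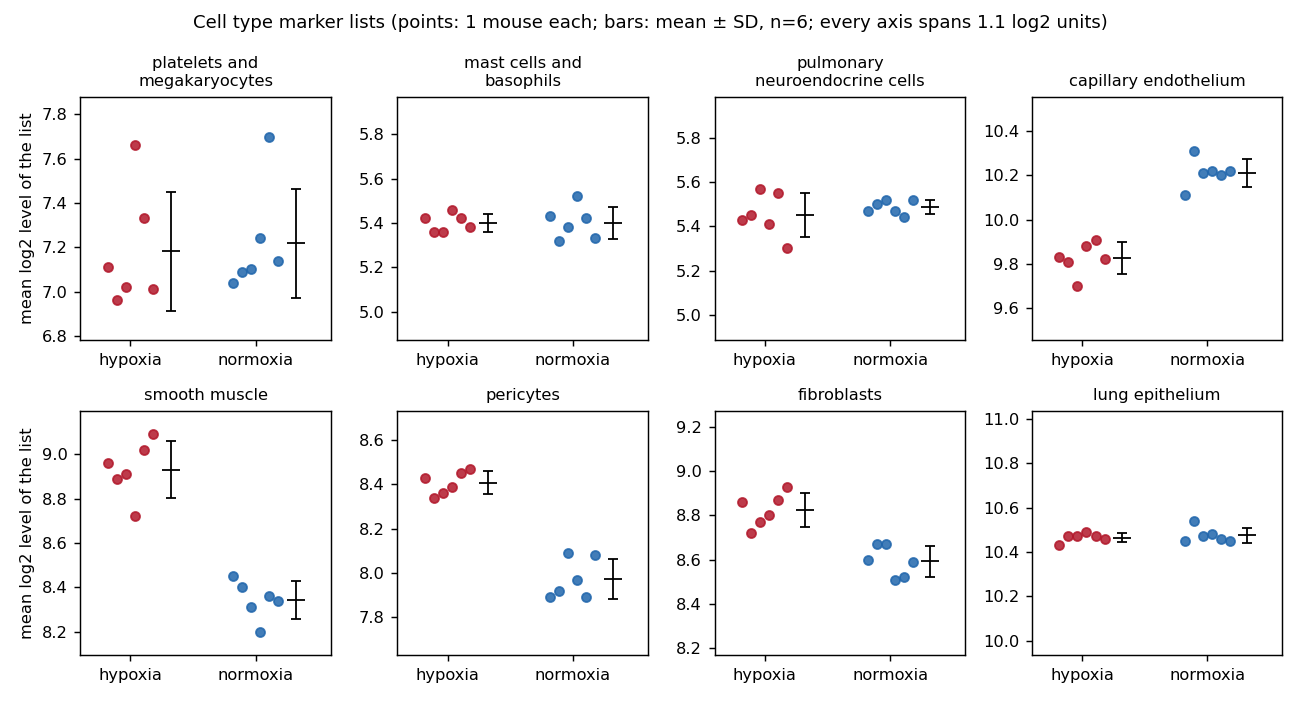
Mean log2 level of each cell type marker list in every mouse, hypoxia left of normoxia in each panel (bars mean±SD, n=6 each, every axis spanning the same number of log2 units). Capillary endothelial markers sit lower in hypoxia (9.70 to 9.91, against 10.11 to 10.31), smooth muscle, pericyte and fibroblast markers sit higher, and the platelet, mast cell, neuroendocrine and epithelial lists overlap.

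Among mice of the same group the 7 genes did not move as a block. Over the 21 pairs of them, the correlation of deviations from the group mean ran from -0.71 for Htr1b with Htr2b to 0.52 for Htr1b with Htr2a, and 19 of the pairs were between -0.40 and 0.40. The genes most like each member by the same measure are given as a description over 12 arrays, picked as the highest of 19236 values each. They were Adcyap1, a neuropeptide gene, for Htr2a (r = 0.94), Dync1h1, the heavy chain of cytoplasmic dynein, for Maoa (0.94), Ppp2r2b, a regulatory subunit of a protein phosphatase, for Maob (0.93), Myh3, an embryonic myosin heavy chain, for Tph1 (0.93), Ppp4r1, a phosphatase regulatory subunit, for Htr1b (0.93) and the zinc finger gene Zfp942 for Htr2b (0.93). The next ranks were Socs4 and Abca16 for Tph1, Irgq and Bicra for Slc6a4, Nlrp1c-ps and Prkg1 for Htr1b, Rrp9 and Dlx6os1 for Htr2a, Olfr154 and Zfp120 for Htr2b, Slc35f5 and Myo1c for Maoa, and Hoxd9 and Zfp141 for Maob, with r from 0.87 to 0.92. None of these 21 genes passed the threshold for hypoxia against normoxia. Several were dim, below the median level of all clusters, 5.91. In hypoxia and normoxia the medians were 3.85 and 3.99 for Adcyap1, 3.69 and 3.62 for Myh3, and 3.67 and 3.62 for Hoxd9. They were 2.36 and 2.34 for Olfr154 and 2.77 in both groups for Abca16.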

How the data were processed

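The authors deposited log2 values, 1 table column per mouse, made by sketch-quantile robust multi-array average normalisation (RMA-sketch) in Affymetrix Expression Console. No version is stated in the sources read. No scanner files were used. Of 41345 rows, 190 were controls and 41155 were tested, of which 23521 carry 1 gene symbol in the platform annotation, 1820 carry several and 15814 are unnamed here. Array medians were 5.89 to 5.92 in hypoxia and 5.89 to 5.95 in normoxia, and the number of arrays limits the precision. Groups come from the sample labels.

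Hypoxia was compared with normoxia by limma 3.58.1 (R 4.3.3, lmFit and eBayes) on all 12 arrays, two-sided, with no filter and Benjamini-Hochberg adjustment over all clusters. Single genes were also compared by exact permutation in Python 3.11.15 (scipy 1.17.1). The fit was tested on simulated data. Members, gene lists and markers were chosen with earlier results of these data known. The text names all members, pathway genes past the threshold and the 2 others of each list with the smallest p, up to 3 called markers a list, and the 3 genes most like each member. Alternatives changed the test, spread model, weights, normalisation, filter, threshold, choice of cluster, a replicate block and each mouse in turn.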

Additional observations from a re-analysis of the deposited data

Results flagged for a closer look

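Within groups of 6 mice, 8 of 80 groups searched over 40 genes held a value far from the rest, where chance gives about 1 in 20. The measure in parentheses is the gap to the nearest mouse over the range of the group, set against Dixon's critical value. None was among the 7 serotonin genes. Gch1 had 2: hypoxia replicate 6 was highest at 7.39, with the others at 7.09 to 7.18 (0.7), and normoxia replicate 1 was lowest at 6.65, with the others at 6.90 to 6.96 (0.806). Slc22a2 was lowest in hypoxia replicate 4, at 3.31 against 3.62 to 3.80 (0.633). Aldh1b1 was highest in normoxia replicate 1, at 5.39 against 5.01 to 5.15 (0.632), and Haao was highest in normoxia replicate 5, at 7.24, with the lowest mouse at 6.88 (0.667). Among the markers, Hpgd was lowest in normoxia replicate 1, at 11.18 against 11.39 to 11.49 (0.677), Acta2 was lowest in normoxia replicate 4, at 9.61 against 9.92 to 10.03 (0.738), and Higd1b was highest in normoxia replicate 3, at 8.39 against 8.09 to 8.20 (0.633).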

How the results depend on the processing

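Maob passed the threshold in all 12 fits that left out 1 mouse (log2 fold change -0.43 to -0.38) and in all 12 other alternatives (-0.41 to -0.38, limma or analysis of variance adjusted p 1.45e-04 to 0.0195). Tph1, Slc6a4, Htr1b, Htr2b and Maoa passed in none. Without 1 mouse, Tph1 ran from -0.12 to -0.01, Slc6a4 from -0.23 to -0.07 and Htr1b from 0.11 to 0.27. Htr2a ran from 0.29 to 0.42 without 1 mouse, and the number of members called was 1 or 2. Without normoxia replicate 6, Htr2b had -0.00, within a range of -0.00 to 0.14, and Slc22a2 ran from -0.11 to 0.02, reaching 0.02 without hypoxia replicate 4 and without normoxia replicate 1. The cause was not tested. The 1840 clusters called became 800 at an adjusted p of 0.01 and 961 with the replicate block, and 1374 to 1577 without 1 mouse, and they became 2228 with a trend, 2322 with the filter on low levels and 2742 at an adjusted p of 0.10. Median centring gave 1256 higher and 501 lower, against 1141 and 699. Under the replicate block Gch1, Aldh2, Aldh1a1, S100a4 and Tgm2 were not called. Mice with the same number had correlated deviations of only -0.01 to 0.072, and 1 of 6 hypoxic mice correlated best with its own number. Pairing by number was not seen in these deviations, and shared handling of mice with the same number was not tested. With a mean-variance trend, Plcb4 and Rhoa also passed (limma adjusted p 0.0276 and 0.0177). Neither passed with quantile normalisation (limma adjusted p 0.0665 and 0.206) or with the replicate block (0.137 and 0.27). The filter on low levels could not give values for Tph1 and Htr1b. Dim signal limits what can be seen of both, of Slc22a2 and the 11 other receptors, and of the neuroendocrine and mast cell lists. Slc6a4, Htr2a and Htr2b lay only a little above the median level of 5.91, at means of 6.21, 6.06 and 6.27 over 12 arrays. In normoxia Htr2a averaged 5.89, below it.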
